A study of Mus musculus with 6 samples.

Results

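The genes described here encode proteins of the nasal mucus layer: the gel-forming mucins Muc5ac, Muc5b and Muc2, the water channels Aqp1, Aqp3, Aqp4 and Aqp5, and the defence proteins Ltf, Dmbt1 and Pigr. They were measured by 16 probe sets, taken as every probe set whose platform annotation names 1 of these 10 genes alone, among 45101 probe sets on the array. Of the 16, 14 passed the filter on dim signals and entered the test across the array, and these cover 9 genes. Muc5ac has 1 probe set, which did not pass, and the other one below the filter is 1 of 4 for Aqp3. RNA came from the olfactory epithelium of mice carrying the OMP-GFP allele. There were 3 arrays of homozygous OMP-GFP mice and 3 of heterozygous OMP-GFP mice, so every sample carries the GFP allele and no wild-type sample was part of the comparison. As background, GFP replaces the coding sequence of Omp, the gene of olfactory marker protein, in this line, and homozygous mice therefore lack a protein that heterozygous mice make from 1 allele. The comparison addressed the effect of olfactory marker protein on transcript levels in this tissue, and an effect of the protein cannot be told apart from that of a further GFP copy. The labels give neither age, strain nor sex and do not say whether an RNA is that of a single animal or of pooled animals. The p-values therefore measure only the spread between these samples, which may be technical.

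As background, the olfactory epithelium is covered by a mucus film in which odorants dissolve before they reach the cilia of the sensory neurons. Gel-forming mucins are large glycoproteins that polymerise and give mucus its viscosity. Aquaporins let water follow salt across gland, duct and surface cells, and secreted proteins such as lactoferrin and secretory antibodies hold microbes in check. Much of this secretion comes from Bowman glands below the epithelium and from the glands and goblet cells of the neighbouring respiratory lining.

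Values below are MAS5 signals on a linear scale, one per probe set and array, and differences are homozygous minus heterozygous on the log2(signal + 38.8) scale. That offset makes differences of dim probe sets smaller than they are on the raw scale. Array medians were 147.9 to 163.7, and precision is limited by having only 6 arrays. For Omp itself, 1422199_at read 5.7, 8.8 and 31.3 in homozygous 1, 2 and 3. The heterozygous 2 and 3 arrays read 4664 and 9143 there, whereas the library labelled heterozygous 1 read 26.3, among the homozygous values. Whether this probe set targets the replaced part of Omp is not known here. The label of heterozygous 1 was kept and its genotype was not tested, so every comparison of the full groups rests on that label. At the other Omp probe set, 1422200_at, the arrays read 7918.5 to 8774 when homozygous and 7968 to 8709 when heterozygous. Myelin genes stood out in the library labelled heterozygous 1, with Mbp at 7268.5 there, against 655 to 928 in homozygous arrays and 739.7 and 1038 in the other heterozygous arrays. Fewer cells of a type and less RNA per cell cannot be told apart in these tissue samples.

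No probe set of these genes passed adjustment over the array. In limma 0 of the 14 tested had an adjusted p under 0.05, beside 0% of the 22514 probe sets tested, and their adjusted p values lay between 0.859 and 0.995. At an unadjusted p under 0.05 in limma there were 2 of 14, or 14.3%, beside 5.73% (1291) of all probe sets tested. They were the single probe set of Aqp1 and 1 of 3 for Aqp4, and both were also the ones whose homozygous arrays all lay above the heterozygous arrays. That pattern held for 5.93% of the probe sets tested, and the opposite one, with no case among the 14, for 5.01%. Of the 14, 12 had a positive difference, or 85.7%, beside 53.6% of all probe sets tested. Their median difference was 0.11, beside 0.01 over all probe sets tested. Once every array was moved to a common median, 10 of the 14 were positive, beside 39.3% of all probe sets tested. Probe sets of 1 gene share their target, so they are not independent of each other.

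**Figure D1:**
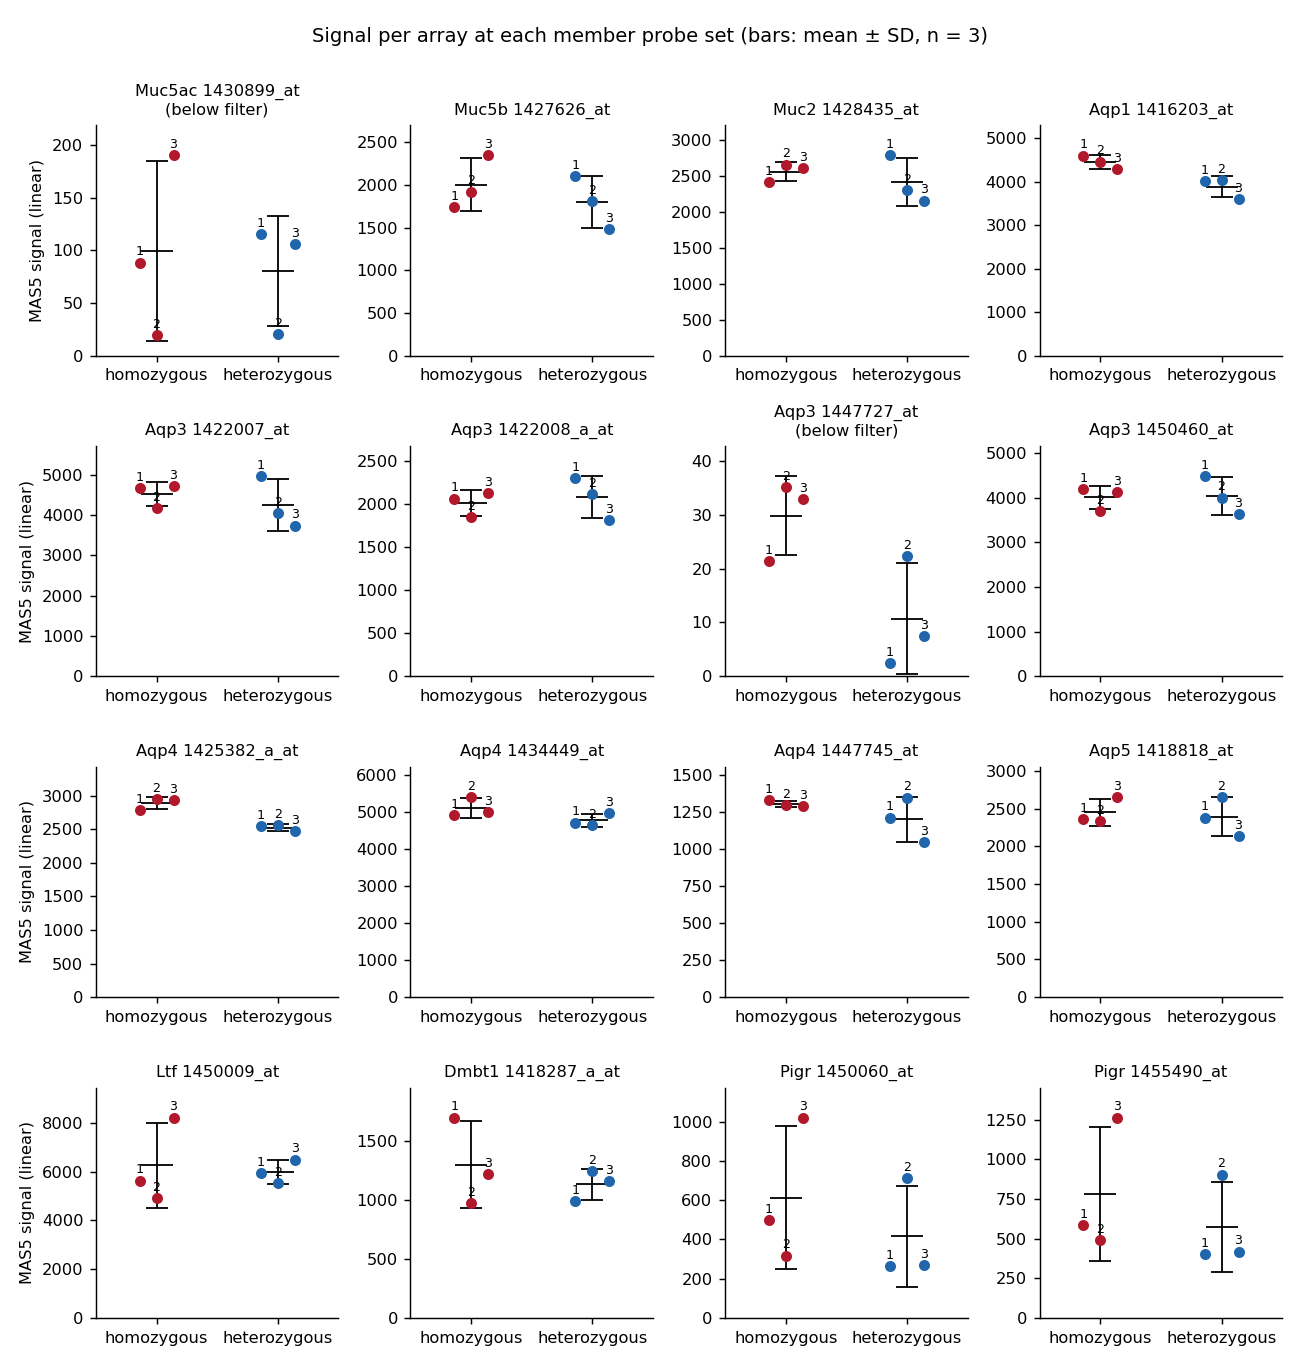
MAS5 signal (linear, axes starting at 0) at each of the 16 probe sets, with homozygous arrays in red and heterozygous arrays in blue, the replicate number above each point, and bars for the mean ± SD (n = 3). The groups separate at Aqp1 1416203_at and Aqp4 1425382_a_at and overlap at the other 14.

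Among the tested probe sets of water channels, those of Aqp1 and 1 of 3 for Aqp4 had the groups apart, with differences of 0.20 and 0.19 whose order changed with the arrays left out. Aqp1 forms the constitutive water pore of red cells and of the endothelium of many vessels. Its probe set 1416203_at read 4606, 4465 and 4289 in homozygous 1, 2 and 3, against 4021, 4037 and 3606 in heterozygous 1, 2 and 3. All 3 homozygous arrays were above all 3 heterozygous arrays, and the lowest array was heterozygous 3. Homozygous arrays averaged 4453 ± 159 and heterozygous arrays 3888 ± 245 (SD, n = 3 each). The difference was 0.20 ± 0.07 (SE), with a 95% interval from 0.04 to 0.35, a limma unadjusted p of 0.0174 and, adjusted, 0.859. The difference was 0.14 without heterozygous 3, 0.22 once the library labelled heterozygous 1 was left out, and 0.15 with arrays shifted to a common median, where its limma unadjusted p was 0.117.

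Markers of the cell types known to make Aqp1 were set beside it. Endothelial markers were higher in homozygous arrays at 6 of the 7 tested, of 9 listed, beside 49.8% of all genes tested. Their median difference was 0.21. Their summed signal was 2421 to 2481 in homozygous and 1961 to 2185 in heterozygous arrays, ranges that do not overlap. Of single probe sets tested, 5.93% had that pattern, and no share was computed for sums of lists. Kdr, the main receptor for vascular endothelial growth factor, read 315, 304 and 269.7 in homozygous arrays, against 182, 202 and 244 in heterozygous arrays. Egfl7, which encodes a protein secreted by endothelial cells, read 579, 617 and 606 in homozygous arrays, against 524, 523 and 490.4 in heterozygous arrays. Plvap, among the brightest on this list, went the other way, at -0.05 ± 0.11 (SE). It read 344, 386.5 and 354 in homozygous arrays, against 385.5, 341.5 and 399 in heterozygous arrays. All 3 tested erythroid markers, of 8 listed, were higher as well, and their summed signal was 708 to 1810 in homozygous and 419.9 to 770.5 in heterozygous arrays. Slc4a1, the anion exchanger of the red cell membrane, read 945, 191 and 281 in homozygous arrays and 289, 212 and 136 in heterozygous arrays, with homozygous 1 far above the other arrays. The part of these cell types in the Aqp1 difference was not tested.

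The RefSeq promoter table of build GRCm38.p6 holds windows for 6 of the 10 genes. The 250 bases upstream of the annotated start are shown for Aqp1, where the groups separate, and for Pigr and Aqp5, the genes of this set with the most similar profiles over the arrays among tested pairs at their brightest probe sets. Capitals mark matches, on either strand, to 4 motifs that do not overlap here: the TATA box, searched as TATAAA, the GC box, searched as GGGCGG, the AP-1 site, searched as TGANTCA, and the E-box, searched as CACGTG.
Aqp1, chr6:55336049-55336298, plus strand: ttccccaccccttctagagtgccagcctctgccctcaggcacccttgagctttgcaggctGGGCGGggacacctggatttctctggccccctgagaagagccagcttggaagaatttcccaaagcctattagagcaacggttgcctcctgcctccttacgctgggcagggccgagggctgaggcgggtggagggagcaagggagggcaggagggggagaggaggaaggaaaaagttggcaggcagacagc
Pigr, chr1:130826434-130826683, plus strand: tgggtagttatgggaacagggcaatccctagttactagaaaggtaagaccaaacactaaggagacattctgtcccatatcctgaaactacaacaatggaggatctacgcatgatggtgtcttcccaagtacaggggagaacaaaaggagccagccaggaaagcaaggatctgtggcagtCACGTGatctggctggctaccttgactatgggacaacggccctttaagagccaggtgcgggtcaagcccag
Aqp5, chr15:99590778-99591027, plus strand: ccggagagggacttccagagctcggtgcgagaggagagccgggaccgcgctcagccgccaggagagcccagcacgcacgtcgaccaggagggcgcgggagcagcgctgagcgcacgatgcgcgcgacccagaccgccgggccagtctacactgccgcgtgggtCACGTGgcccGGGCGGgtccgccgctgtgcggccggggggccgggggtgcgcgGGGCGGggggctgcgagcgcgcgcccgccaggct

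The Aqp1 window holds 1 GC box, the Pigr window 1 E-box, and the Aqp5 window 1 E-box and 2 GC boxes. Of all 32851 windows of this length in the table, 32.7% hold a GC box and 6.02% hold this E-box. A TATA box is in 12.4% and an AP-1 site in 6.75% of all windows, and neither is in the windows shown. These matches describe the letters only, and factor binding was not measured.

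Aqp4, the water channel of basolateral membranes in several epithelia and of astrocyte end-feet, was read by 3 probe sets that did not give the same picture. At 1425382_a_at the homozygous arrays read 2781, 2951 and 2936, against 2547, 2557.5 and 2473 in heterozygous arrays. The groups do not overlap there, and the spread within groups, an SD of 0.04 on the log2 scale, was at the 1.94th percentile of all probe sets tested. Homozygous arrays averaged 2889 ± 93.9 and heterozygous arrays 2526 ± 46.1 (SD, n = 3 each). They differed by 0.19 ± 0.07 (SE), with a limma unadjusted p of 0.0153 and, adjusted, 0.859. With arrays shifted to a common median the difference was 0.15 and its limma unadjusted p 0.101.

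The other probe sets of Aqp4 overlapped between the groups. At 1434449_at the homozygous arrays read 4923, 5416 and 4994, against 4718, 4644 and 4966 in heterozygous arrays. Heterozygous 3 lay above homozygous 1 there, and the difference was 0.10 ± 0.07 (SE; limma adjusted p 0.909). At 1447745_at the homozygous arrays read 1326, 1294 and 1286, against 1209.8, 1344 and 1042 in heterozygous arrays. Heterozygous 2 was the highest array and heterozygous 3 the lowest, with a difference of 0.12 ± 0.10 (SE; limma adjusted p 0.911). All 3 probe sets had a positive difference, which for 1447745_at became -0.04 without heterozygous 1 and 3.

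Aqp3, which passes glycerol as well as water and sits in the basal and lateral membranes of surface epithelia, showed no difference beyond the spread between arrays. At 1422007_at the homozygous arrays read 4665, 4165 and 4709, against 4962, 4037 and 3737 in heterozygous arrays, a difference of 0.10 ± 0.10 (SE). The heterozygous arrays held both the highest and the lowest value. At 1450460_at the homozygous arrays read 4196, 3709 and 4119, against 4485, 4002 and 3624 in heterozygous arrays, and at 1422008_a_at they read 2064, 1847 and 2128, against 2303, 2119 and 1815. The differences were -0.01 ± 0.09 and -0.04 ± 0.10 (SE), and the 95% intervals of all 3 bright probe sets lay between -0.26 and 0.32. In each of these probe sets the library labelled heterozygous 1 was highest, and without it all 3 differences were positive, at 0.21 for 1422007_at, 0.07 for 1450460_at and 0.03 for 1422008_a_at. Without heterozygous 3, the lowest array in each, they were 0.01 for 1422007_at, -0.08 for 1450460_at and -0.13 for 1422008_a_at. The remaining probe set, 1447727_at, read 21.4, 35.1 and 32.9 in homozygous and 2.5, 22.3 and 7.4 in heterozygous arrays. These signals lie at the 14.9th percentile of the array and below the offset, and they were not tested.

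Aqp5, the apical water channel of secretory gland cells, did not differ between the groups beyond the spread between arrays. Its probe set 1418818_at read 2358, 2335 and 2657 in homozygous 1, 2 and 3, against 2380.3, 2653 and 2138 in heterozygous 1, 2 and 3. Homozygous 3 and heterozygous 2 were high and the other four arrays lower. The difference was 0.04 ± 0.09 (SE), with a 95% interval from -0.17 to 0.24 and a limma adjusted p of 0.983.

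**Figure D2:**
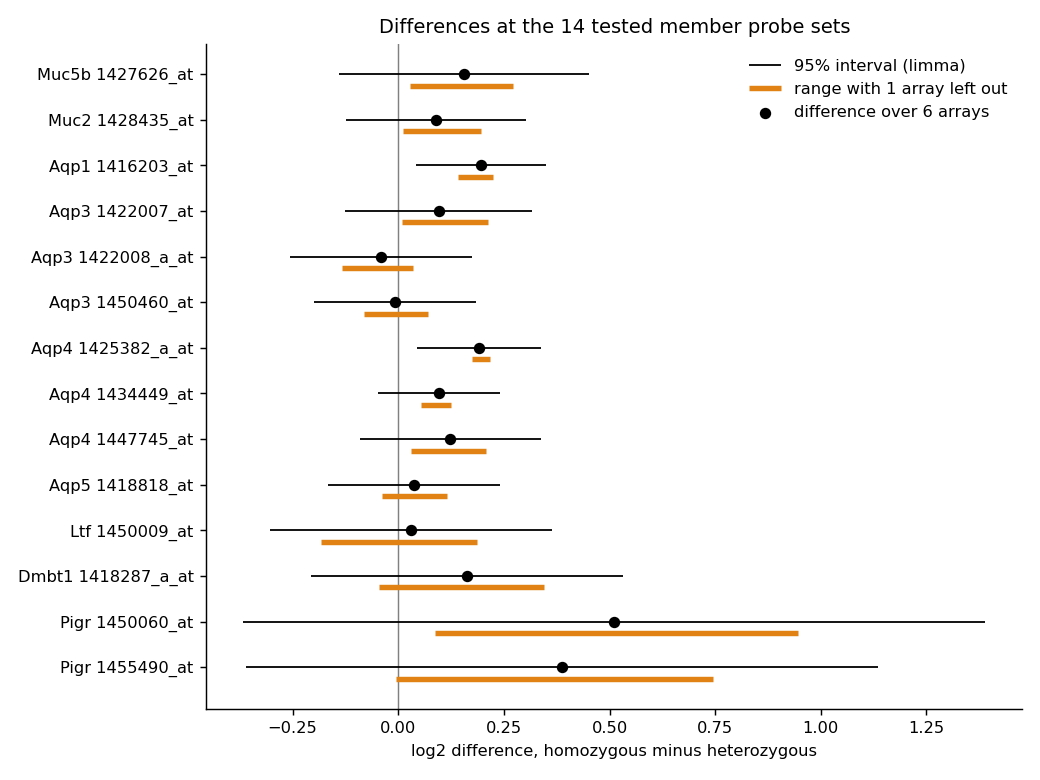
Log2 difference, homozygous minus heterozygous, at the 14 tested probe sets (points), with the limma 95% interval in black and the range obtained with each of the 6 arrays left out in orange. The intervals of Aqp1 1416203_at and Aqp4 1425382_a_at lie above 0 before adjustment over the array, and those of the Pigr probe sets are the widest, reaching 1.39.

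Of the gel-forming mucins, Muc5b and Muc2 gave bright signals, at the 91.6th and 93.8th percentiles of the array. Muc5b is a major mucin of airway glands and surface mucus. Its probe set 1427626_at read 1745, 1923 and 2348 in homozygous 1, 2 and 3, against 2104, 1813 and 1484 in heterozygous 1, 2 and 3. The groups overlapped, with homozygous 3 highest and heterozygous 3 lowest. Homozygous arrays averaged 2005 ± 310.1 and heterozygous arrays 1800.3 ± 309.8 (SD, n = 3 each), which is 0.16 ± 0.13 on the log2 scale (SE; limma adjusted p 0.915). The difference was 0.04 without homozygous 3 and 0.03 without heterozygous 3.

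Muc2 is best known as the mucin of intestinal goblet cells. Its probe set 1428435_at read 2406, 2655 and 2601 in homozygous arrays, against 2784, 2299 and 2153 in heterozygous arrays. The library labelled heterozygous 1 was the highest array, and the other heterozygous arrays were the lowest. The difference was 0.09 ± 0.10 (SE; limma adjusted p 0.932). Leaving out heterozygous 3 gave 0.01, and leaving out the library labelled heterozygous 1 gave 0.19.

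Muc5ac, the goblet cell mucin of the airway surface, was dim. Its probe set 1430899_at read 88.3, 19.7 and 190.2 in homozygous arrays, against 115.2, 20.5 and 105.8 in heterozygous arrays. Its mean lay at the 37.5th percentile of the array, below the filter, and the arrays spanned 9.65-fold with homozygous 2 and heterozygous 2 both low. The difference of 0.12 became -0.35 without homozygous 3 and -0.32 without heterozygous 2. In the RefSeq gene table Muc6, Muc2, Muc5ac and Muc5b follow each other on chromosome 7 with no other protein-coding gene between them. Omp lies on that chromosome, at 43.5 Mb from Muc2, 43.6 Mb from Muc5ac and 43.7 Mb from Muc5b. Dmbt1 lies there as well, 32.9 Mb from Omp. The part of linkage to the Omp locus in the values of these genes was not tested. In the same table Aqp5 lies between Aqp2 and Aqp6, Aqp3 beside Aqp7, and Pigr between Fcamr and Fcmr, which encode receptors for immunoglobulins.

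Of the genes tested here, the defence proteins varied most from array to array. Ltf encodes lactoferrin, an iron-binding protein of glandular secretions and of neutrophil granules. Its probe set 1450009_at read 5625, 4908.5 and 8209.6 in homozygous 1, 2 and 3, against 5935, 5528 and 6484 in heterozygous 1, 2 and 3. Homozygous 3 was the highest array and homozygous 2 the lowest, so the heterozygous range lies within the homozygous range. Homozygous arrays averaged 6248 ± 1736 and heterozygous arrays 5982 ± 479.9 (SD, n = 3 each), which is 0.03 ± 0.15 on the log2 scale (SE; limma adjusted p 0.991). The difference was -0.18 without homozygous 3.

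Since Ltf is also a neutrophil gene, other neutrophil and marrow granule markers were set beside it. Of 6 tested, 5 were higher in homozygous arrays, beside 49.8% of all genes tested, with a median difference of 0.45. At a limma unadjusted p under 0.05 were 3 of the 5, beside 4.81% of the 11426 genes tested. The median was 0.26 without homozygous 1 and 0.18 without heterozygous 1 and 3. Their summed signal, which includes Lcn2, was 10941, 8259.8 and 13291 in homozygous 1, 2 and 3, against 7764, 10097 and 8028 in heterozygous 1, 2 and 3. S100a8, which encodes a calcium-binding protein abundant in neutrophils, read 3140.1, 1920.1 and 2539 in homozygous arrays and 1619, 2237 and 1710.5 in heterozygous arrays, highest in homozygous 1. Its partner S100a9 differed by 0.53 ± 0.19 (SE), Camp by 0.57 ± 0.25 and Mmp9 by -0.03 ± 0.08. Ltf was highest in homozygous 3, where S100a8 and S100a9 were second. The part of neutrophils in the Ltf signal was not tested.

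Dmbt1 encodes a secreted scavenger receptor glycoprotein that binds bacteria. Its probe set 1418287_a_at read 1701, 975.7 and 1223.5 in homozygous 1, 2 and 3, against 992.5, 1247 and 1161.5 in heterozygous 1, 2 and 3. Homozygous 1 was the highest array and the other five lay within 975.7 to 1247. The difference was 0.16 ± 0.17 (SE; limma adjusted p 0.925), and -0.05 without homozygous 1.

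Pigr, the receptor that carries polymeric immunoglobulins across epithelial cells and leaves its cleaved part on secreted IgA, varied more than the other genes whose probe sets were tested. Its probe set 1450060_at read 499, 317 and 1020.5 in homozygous 1, 2 and 3, against 265, 713.5 and 267.5 in heterozygous 1, 2 and 3. At 1455490_at the homozygous arrays read 583.5, 490.0 and 1264, against 405, 904 and 418 in heterozygous arrays. At both probe sets homozygous 3 was highest, heterozygous 2 second and heterozygous 1 and 3 lowest. The profiles of the 2 probe sets had a Pearson r of 0.99 over the 6 arrays, as a description of probe sets that share target and RNA. The highest array was 3.85 times the lowest at 1450060_at and 3.12 times at 1455490_at.

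The spread of Pigr within groups was among the largest of the probe sets tested on these arrays. Its within-group SD on the log2 scale was 0.77 at 1450060_at and 0.66 at 1455490_at, at the 99.8th and 99.7th percentiles of the probe sets tested. The corresponding percentiles were 95 for Dmbt1, 93.6 for Ltf and 86.8 for Muc5b, 50.3 for Aqp5, where the SD was 0.13, and 16.03 for Aqp1. The differences of Pigr between the groups were 0.51 ± 0.40 and 0.39 ± 0.34 (SE), with limma adjusted p values of 0.911 and 0.915. The 95% intervals ran from -0.37 to 1.39 and from -0.36 to 1.14. Without homozygous 3 the differences were 0.09 and -0.01, and without heterozygous 2 they were 0.95 and 0.74.

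Antibody transcripts were set beside Pigr, which carries polymeric IgA and IgM. Jchain, which encodes the chain that joins polymeric immunoglobulins, read 54.4, 46.3 and 74.7 in homozygous arrays and 71.3, 51.6 and 65.7 in heterozygous arrays. Igha, the IgA heavy chain, read 93.8, 99.3 and 70.4 in homozygous arrays and 135.7, 74.8 and 175.4 in heterozygous arrays. Ighm, the IgM heavy chain, read 279, 184 and 191 in homozygous arrays and 231, 222 and 198 in heterozygous arrays, at -0.01 ± 0.16 (SE). Jchain and Igha did not pass the filter and Ighm did, and Igha was lowest in homozygous 3, the array in which Pigr was highest. Of 4 tested genes on the immunoglobulin and plasma cell list, 1 was higher and 3 lower in homozygous arrays, with a median difference of -0.01. Ccl28, the mucosal chemokine that attracts IgA plasma cells, read 470, 457 and 592 in homozygous arrays and 470, 539.8 and 470 in heterozygous arrays, again with homozygous 3 first and heterozygous 2 second.

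Lcn2, singled out after its values were seen, had a profile close to that of Pigr. Lcn2 encodes a siderophore-binding protein of mucosal cells and neutrophils. It read 1484.5, 1456 and 4932 in homozygous 1, 2 and 3, against 1546, 2632 and 1179 in heterozygous 1, 2 and 3. Homozygous 3 and heterozygous 2 were the highest arrays, as they were for Pigr and Aqp5. The difference was 0.38 ± 0.41 (SE; limma adjusted p 0.932).

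**Figure D3:**
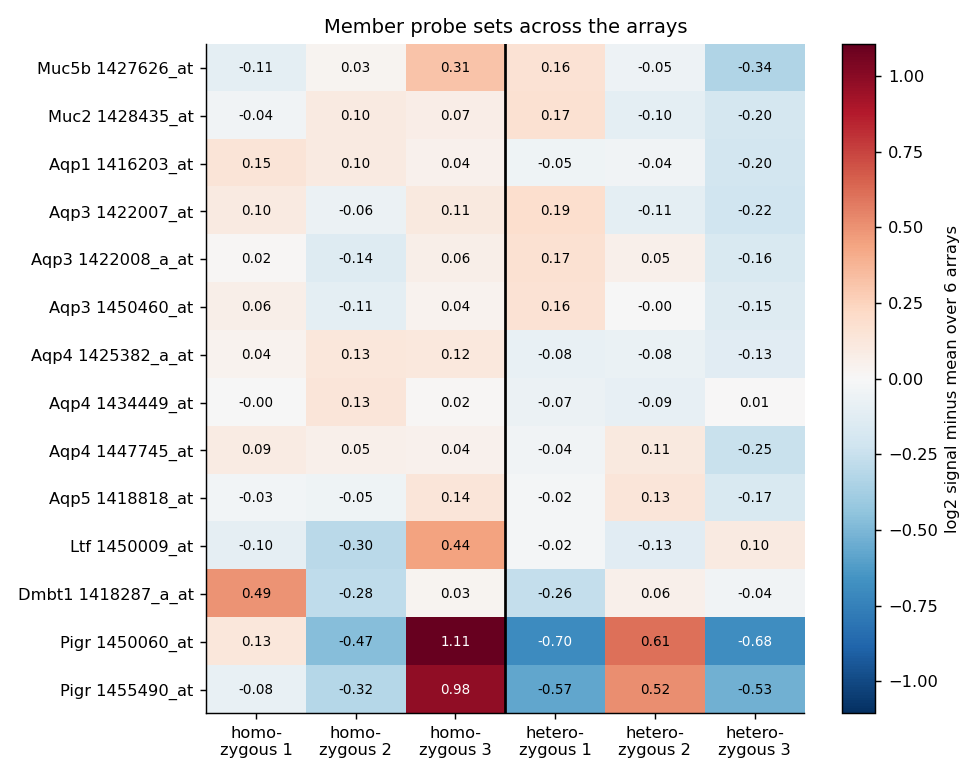
Log2 signal of the 14 tested probe sets minus the mean of each over the 6 arrays (colour and printed values), with homozygous arrays left of the line and heterozygous arrays right of it. Pigr departs most, at 1.11 and 0.98 in homozygous 3, while heterozygous 3 is the lowest array for 9 of the 14 probe sets.

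Across the set, array and genotype label did not line up for most genes. Heterozygous 3 had the lowest signal at 9 of the 14 tested probe sets, or 64.3%, beside 23.9% of all probe sets tested and 28.9% of the brightest 25% of the array. The median of the 14, centred on the mean of each over the arrays, was -0.18 in heterozygous 3, against -0.02 for the brightest 25% of the array. Low values there were not particular to these genes. Over gene lists, the mean centred value in heterozygous 3 was -0.25 for other mucosal defence genes and -0.18 for sensory neuron markers. It was -0.11 for sustentacular cell markers, and positive only for Bowman and nasal gland markers (0.12) and brain and olfactory bulb markers (0.87). Homozygous 3 was highest at 5 of the 14 and the library labelled heterozygous 1 at 4. Without homozygous 3 the median difference of the 14 was 0.07, with 9 of 14 positive, beside 53.9% of all probe sets tested. Without heterozygous 3 it was 0.06, with 11 of 14 positive, beside 51.8%. Leaving out the library labelled heterozygous 1 instead gave 0.16, with 14 of 14 positive, beside 53.8%. With both heterozygous 1 and 3 left out it was 0.08, with 9 of 14 positive, beside 51.7%. Of the 4 tested brain and olfactory bulb markers, Rbfox3, Cplx1 and Camk2a were highest in heterozygous 3, where Cplx1 read 738, against 229 to 308 in homozygous arrays and 140.0 and 246 in the other heterozygous arrays. Eomes went the other way, at 205 in heterozygous 3, against 453 to 510.0 in homozygous arrays and 382 and 310.5 in the other heterozygous arrays. Whether that bears on the probe sets of this set that were lowest in heterozygous 3 was not tested.

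Profiles were compared by Pearson r over the 6 arrays on the log2 scale, at the brightest probe set of each gene, as a description. The arrays share their RNA between all genes, and with 6 arrays and 11426 genes each of the 9 genes had a nearest gene at an r of 0.97 or above. Within the set, Aqp5 and Pigr were the most alike (r = 0.88). Muc5b and Muc2 were each nearest to the other (0.83), and the gene of the set nearest to Aqp3 was Muc2 (0.78). The nearest was Pigr for Ltf (0.55), Aqp3 for Aqp1 (0.54), Aqp1 for Aqp4 (0.39) and Aqp1 for Dmbt1 (0.36). Over all genes tested, the nearest were Gnmt and Dnph1 for Pigr (1.00 and 0.99), Rdh11 and Eloa for Aqp1, Slc35e3 and Rcn1 for Muc5b, Tmem268 and Brd8 for Muc2, and Eif4e2 and Mta3 for Aqp3. For Aqp4 they were Golga4 and Zfp949, for Aqp5 Cept1 and Mrps27, for Ltf E130311K13Rik and Zwint, and for Dmbt1 Gm17586 and Cd109, with an r of 0.97 for Zwint and 0.99 for Gm17586.

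Other genes of the mucus layer were then described from 6 lists, with 1 probe set per gene. In limma 0% of 11426 genes tested passed an adjusted p of 0.05, none of them on these lists, and 4.81% (550) had an unadjusted p under 0.05. Over all genes tested the median difference was -0.00 and 49.8% were higher in homozygous arrays. Of the other mucins, 5 of 6 tested genes were higher, with a median of 0.12. Muc16, a membrane mucin of wet surface epithelia, read 1376, 1608 and 1409 in homozygous arrays and 1275, 1245 and 1198 in heterozygous arrays. Its groups do not overlap, and the difference was 0.23 ± 0.08 (SE), with a limma unadjusted p of 0.0205 and, adjusted, 0.859. Muc1, another membrane mucin, read 593, 726 and 902 in homozygous arrays and 631, 712.5 and 556 in heterozygous arrays, with overlap, at 0.20 ± 0.14 (SE).

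Most other aquaporins were dim. Of 8 listed, all were on the array and 1 passed the filter, Aqp11, an intracellular channel, at -0.12 ± 0.14 (SE). Genes of mucin synthesis and goblet cells were divided, with 9 of 18 tested higher and 9 lower and a median of 0.02, which was -0.06 without homozygous 3 and -0.04 without heterozygous 3. St6galnac1, which caps mucin sugars with sialic acid, read 367, 331 and 375 in homozygous arrays and 306, 193 and 174.5 in heterozygous arrays, without overlap, at 0.62 ± 0.17 (SE; limma unadjusted p 0.00442, adjusted 0.859). Gcnt1, which branches core sugar chains, read 329, 254 and 249 in homozygous arrays and 246, 566 and 732 in heterozygous arrays. The library labelled heterozygous 1 was the lowest array, just below the homozygous ones. The difference was -0.70 ± 0.29 (SE), with a limma unadjusted p of 0.0353 and, adjusted, 0.859. Agr2, a disulfide isomerase needed for mucin folding in the mouse intestine, differed by 0.11 ± 0.07, and C1galt1c1, the chaperone of core sugar synthesis, by -0.07 ± 0.08 (SE).

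Other mucosal defence genes were higher at 10 of 12 tested, with a median of 0.12. Camp, at 0.57, and Lcn2, at 0.38, are also counted on the neutrophil list, so these lists are not separate observations. Reg3g, which encodes a lectin that kills Gram-positive bacteria, read 10219.9, 10578 and 12434 in homozygous arrays and 10301, 10215.5 and 8687 in heterozygous arrays. Heterozygous 3 was again lowest and homozygous 3 highest, and the difference was 0.18 ± 0.09 (SE). Bpifa1, an abundant secreted protein of the upper airway, differed by -0.02 ± 0.05 (SE). The median of this list was -0.00 without homozygous 3, 0.02 without heterozygous 3 and 0.21 without heterozygous 2.

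Genes of fluid and ion transport were higher at 11 of 14 tested, with a median of 0.17, and 2 had a limma unadjusted p under 0.05. Slc4a4, a sodium bicarbonate cotransporter, read 1249, 1429.8 and 1259.7 in homozygous arrays and 1192, 1118 and 977 in heterozygous arrays, without overlap, at 0.25 ± 0.10 (SE). Slc12a2, the basolateral cotransporter that loads chloride in gland cells and in olfactory neurons, read 9006, 9419.8 and 7707 in homozygous arrays and 7541, 7692 and 7817 in heterozygous arrays, at 0.18 ± 0.08 (SE). Homozygous 3 lay within the heterozygous range of Slc12a2. Atp1b1, a subunit of the sodium pump, differed by -0.00 ± 0.06 (SE). Without homozygous 1 the median of this list was 0.07.

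**Figure D4:**
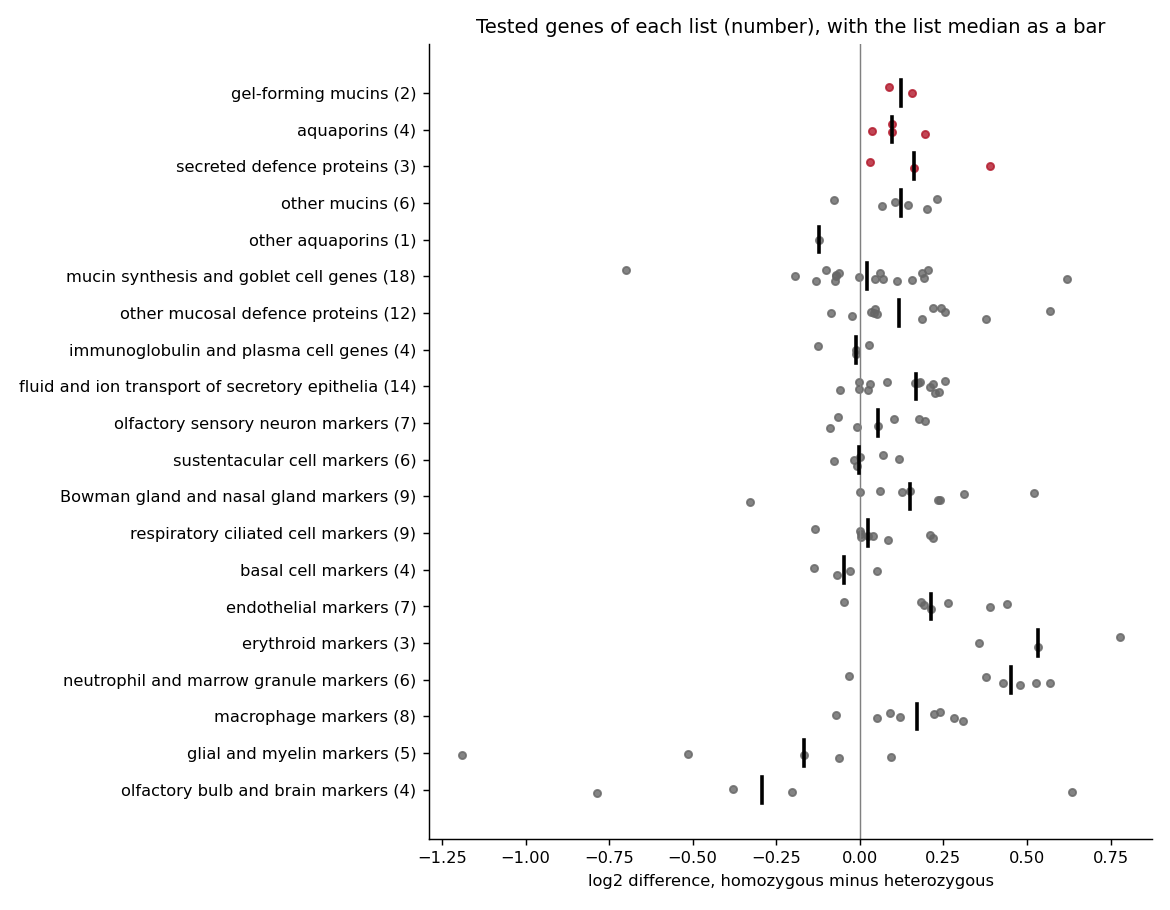
Log2 difference, homozygous minus heterozygous, of each tested gene (points) by list, with the number of tested genes after each list name and the median as a black bar; the mucin, aquaporin and defence genes described here are in red. Their 9 points, at the brightest probe set of each gene, lie between 0.03 and 0.39. The dimmer tested Aqp3 probe sets, at -0.01 and -0.04, are not drawn. Medians of the other lists run from -0.29 for brain and olfactory bulb markers to 0.53 for erythroid markers. Those of sustentacular and basal cell markers are -0.00 and -0.05, and those of endothelial and neutrophil markers 0.21 and 0.45.

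Markers of the cells that could hold these transcripts were given beside them. The labelled tissue was represented by bright signals of sensory neuron genes such as Stoml3, at 17970 to 20031 in homozygous and 15125 to 19961.5 in heterozygous arrays, and of the sustentacular cell gene Cyp2g1, at 17796 to 18297 in homozygous and 17990.1 to 18562 in heterozygous arrays. Bowman and nasal gland markers were higher at 8 of 9 tested, with a median of 0.15. That median depended on single arrays, at 0.08 without homozygous 3, 0.06 without heterozygous 2, 0.23 without heterozygous 3 and 0.10 once the library labelled heterozygous 1 was left out. It was -0.00 with both heterozygous 1 and 3 left out. Their summed signal was 108798 to 114372 in homozygous arrays, against 90209.9, 112408 and 107801 in heterozygous 1, 2 and 3, so the library labelled heterozygous 1 was the low one. Obp1a, an odorant-binding lipocalin of nasal glands, read 18378.5, 17965 and 22829.6 in homozygous arrays and 11731.5, 23640.6 and 14178 in heterozygous arrays. Its highest arrays, heterozygous 2 and homozygous 3, were also the highest for Pigr, but the list was divided there. The nasal lipocalin genes Obp2a, Lcn3 and Lcn4 had their lowest value in heterozygous 2, with Obp2a at 7655.5 in that array, against 13486 to 13933 in homozygous arrays and 13547 and 14846.5 in the other heterozygous arrays. Lcn11, a further lipocalin gene of the list, read 20660.6 in heterozygous 2, against 14845 to 18435 in homozygous arrays. Its other heterozygous arrays read 8610.7 and 20817. Odam was highest in heterozygous 2, at 4794. The mean centred value of the whole list was -0.15 in heterozygous 2 and 0.11 in homozygous 3. It was highest in heterozygous 3, at 0.12, and lowest in the library labelled heterozygous 1, at -0.19. The part of gland content in the Pigr signal was not tested.

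Medians of the remaining marker lists lay between -0.29 and 0.17. Respiratory ciliated cell markers were higher at 7 of 9 tested with a median of 0.02, and Rfx3, which regulates genes of cilia, was at 0.22 ± 0.07 (SE). Sustentacular cell markers had 3 of 6 higher and a median of -0.00, and basal cell markers 1 of 4 higher and a median of -0.05, with the basal keratin gene Krt5 at 0.05 ± 0.09 (SE). Olfactory sensory neuron markers had 4 of 7 higher and a median of 0.05. Leaving out 1 array turned the sign of the sustentacular, basal and sensory neuron medians, the last being -0.02 without heterozygous 3. Macrophage markers were higher at 7 of 8 tested, beside 49.8% of all genes tested, with a median of 0.17. Their summed signal was 6842 to 7415.5 in homozygous and 6529 to 6820.4 in heterozygous arrays. These ranges do not overlap but lie close together, at 6842 and 6820.4. Of single probe sets tested, 5.93% had that pattern, and no share was computed for sums of lists. Csf1r, the brightest of these markers, overlapped between the groups, at 0.05 ± 0.07 (SE). Glial and myelin markers had 1 of 5 higher at a median of -0.17, and olfactory bulb and brain markers 1 of 4 higher at a median of -0.29. The brain list had a median of 0.39 without heterozygous 3. The glial list had one of -0.01 without the library labelled heterozygous 1, and of -0.03 without homozygous 2.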

How the data were processed

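RNA of 6 olfactory epithelium samples was hybridised to Affymetrix whole-genome mouse arrays, per the labels. The deposited values are intensities, MAS5 signals per probe set, per the submitters' processing notes; their version was not given in the sources used here. Every array had a trimmed mean (2% at each end) of 500.002, so no scaling was added.

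Signals were taken as log2(signal + 38.8), the offset being the pooled 25th percentile. Probe sets with a mean at or above the median were tested, 22514 without controls, in limma 3.58.1 (R 4.3.3) with lmFit and trended eBayes, and p-values were adjusted by Benjamini-Hochberg over all of them at 0.05. The test was run on simulated data with planted changes, but most differences described here were smaller than any of those. The simulation therefore does not show whether differences of this size would be found. Genes were named by the platform annotation; a gene's brightest probe set stood for it in lists. By rule, every probe set of the set was named, with the 2 genes of lowest p and the 2 of highest signal per list. The 2 nearest profiles were named too. Not all list genes so chosen are printed. Jchain, Igha, Ighm, Lcn2, Obp2a, Lcn4, Lcn11, Odam and Rbfox3 were named outside this rule. Of 199 list entries 183 matched the annotation. Members, lists and alternatives were chosen with earlier results of these data known. Alternatives were other offsets, scalings, filters, no trend, a replicate block, a threshold of 0.1, arrays left out and, for lists, averaging the probe sets of a gene. Detection calls were not used here.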

Additional observations from a re-analysis of the deposited data

How the results depend on the processing

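No probe set of these genes passed adjustment in any alternative. Over the array, 0 of 22514 passed in limma, with 1291 at an unadjusted p under 0.05, and 0 in the alternatives except those given here. With the pooled-median offset 1 passed, 1455869_at, which names no gene alone. Leaving out 1 array gave 0 to 25, the 25 without the library labelled heterozygous 1; 1455869_at was the 1 called without homozygous 2, and Mtmr7 1447831_s_at the 1 called without homozygous 3. Leaving out heterozygous 1 and 3 together gave 27, the lone heterozygous array being assumed to vary like the others. Of the 16 probe sets, 9 changed sign in at least 1 alternative. With arrays shifted to a common median Aqp5 was -0.0046 and Ltf -0.012, and after quantile normalization Aqp3 1450460_at was 0.021. Without heterozygous 1 and 3, Aqp3 1450460_at was 0.00021, Aqp4 1447745_at -0.044, Aqp5 -0.116, Pigr 1450060_at -0.357 and Pigr 1455490_at -0.322. With 1 array left out, differences ranged from -0.35 to 0.64 for Muc5ac, -0.134 to 0.034 for Aqp3 1422008_a_at, -0.081 to 0.071 for Aqp3 1450460_at, -0.039 to 0.114 for Aqp5, -0.183 to 0.186 for Ltf, -0.045 to 0.344 for Dmbt1 and -0.0058 to 0.744 for Pigr 1455490_at. The causes were not tested. With the replicate block 0 passed; deviations of same-numbered arrays correlated at 0.016, -0.116 and -0.047, so the numbers were not taken as pairs. Dim probe sets lie near the offset, where their differences depend on it: with an offset of 1 Aqp3 1447727_at was 1.77, against 0.48 with 38.8. Pigr 1450060_at fell below the stricter filter at the 75th percentile.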
